A study of Mus musculus with 37 samples.

Results

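Gene expression in the noncancerous ureter of carcinogen-treated mice (UN) was compared with that in the ureter of untreated mice (U), using 13 of the 37 RNA-seq libraries of the series. The libraries were those whose labels named the noncancer side of the upper urinary tract after N-butyl-N-(4-hydroxybutyl)nitrosamine (BBN) and the ureters of the untreated mice. All mice were wild-type BALB/c females, and treatment began in early adulthood. The UN group held 7 libraries from 7 mice given BBN in drinking water for 18 weeks, 4 from the left and 3 from the right ureter, and every one of these 7 mice also gave a library of its cancerous opposite ureter (UT). The U group held 6 libraries, the left and right ureters of 3 mice given tap water. The other 24 libraries came from 11 UT ureters, 10 bladders of BBN-treated mice and 3 bladders of untreated mice. Because each UN mouse carried a ureter tumor on the other side, exposure to BBN and bearing a tumor cannot be told apart in this comparison. The comparison asks which genes already differed in ureter that had been exposed to the carcinogen but was not called cancerous.

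BBN is oxidized in the body to a carboxylic acid metabolite that reaches the urinary tract with the urine and alkylates the DNA of the lining cells. The urothelium that lines the ureter has basal cells marked by keratin 5 and p63, and umbrella cells that cover the lumen with plaques of uroplakins. Injured urothelium is known to proliferate, to switch on squamous keratins and to release cytokines, while damaged DNA activates p53, which induces genes for cell cycle arrest and death. A whole ureter also contains smooth muscle, stroma, vessels, nerves and the fat attached to it. In such bulk tissue, fewer cells of a type and less RNA per cell cannot be told apart.

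The UN libraries held 4675081 to 14973904 counts and the U libraries 12980008 to 18793560. Values below are CPM per mouse (counts scaled to a common library total, normalized by TMM), in which both ureters of a U mouse were summed. UN 6 stood apart, with the lowest total and 19.7% of its counts on the ribosomal RNA gene Rn45s, against 0.412% to 0.989% in the other UN libraries. The mean library totals of the mice overlapped between the groups (two-sided exact permutation test, p = 0.0667, 7 against 3 mice). The summed profiles did not overlap in depth. Over the tested genes they held 28317500 to 34911700 counts in the U mice and 4645470 to 14960400 in the UN mice. UN 2 went against its tissue label, because its markers of urothelium were nearly absent. Upk2, an umbrella cell uroplakin, stood at 0.346 CPM there against 25.4 to 92.5 in the other UN mice. Krt5, the basal keratin, was at 3.69 CPM in UN 2 against 108 to 2167. The same library had the highest levels of fat and red cell genes, with 4019 CPM of Adipoq and 6232 CPM of Hba-a1. Counts over lists are therefore also given without UN 2, and without UN 2 and UN 6 ("both mice"), the latter added after the data were seen. Smooth muscle, fibroblast, endothelial and fat markers were present in all 10 mice, and the ovary marker Foxl2 did not exceed 0.0337 CPM.

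Across 15609 tested genes, edgeR called 2 genes higher in UN than in U, Serpinb6b and Jchain, and 2 genes lower, Emid1 and Col23a1, where a call needed a Benjamini-Hochberg adjusted p under 0.1 together with a change of 2-fold or more. Each direction made up 0.0128% of the genes tested. An unadjusted p under 0.05 was reached by 2192 genes, the 4 called genes included. The U profiles were alike and the UN profiles were not, but each U profile sums both ureters of a mouse and each UN profile is a single ureter. The SD of log2 CPM had a median over genes of 0.172 among U profiles and 0.701 among UN profiles, and was larger in UN for 99.0% of genes. Between the single left and right ureters of a U mouse, the median SD was 0.246. The part of summing and depth in this difference was not tested. A fit that gave each group its own variance (limma-voom, the group-variance fit) called 1385 genes higher (8.87%) and 973 lower (6.23%). For 646 genes (4.14%) every UN mouse lay above every U mouse, and for 539 (3.45%) every UN mouse lay below. Without UN 2 these shares were 6.44% above and 5.49% below, and without both mice 11.2% and 8.85%, so a list's counts with mice left out are to be read against those shares. Numbers 1, 2 and 3 occur in both groups, though same-numbered UN and U mice are different animals. The values do not show that the numbers link them, since each U mouse correlated best with a UN mouse of another number. With mice of the same number placed in a block, the contrast rests on these 3 pairs, UN 2 among them, with 2 residual degrees of freedom, since UN 4, UN 6, UN 7 and UN 9 are alone in their blocks. In this fit edgeR called 117 genes higher (0.75%) and 66 lower (0.423%). Genes named below that it called with the block and not without it were Ccl9, Cdkn1a, Cebpd, Ctla4, Cxcl16, Cxcl5, Gpnmb, Ier3, Ifitm1, Il1rn, Lcn2, Ltf, Mmp3, Mzb1, Napsa, Olfm4, Saa1, Timp1 and Trem2, higher, and Igfbp2 and Kdr, lower, each with an adjusted p = 0.0969. Without UN 2 it called 57 higher (0.367%) and 8 lower (0.0515%), and without both mice 728 (4.75%) and 124 (0.81%), where the group-variance fit called 10% higher and 8.04% lower, against 9.59% and 7.23% without UN 2 alone. Below, "rose" and "fell" are used for the 4 genes called by edgeR without the block, and other genes are described by their values, by whether UN and U mice overlapped, and by the group-variance fit.

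Jchain encodes the joining chain that links secreted IgA and IgM, and Serpinb6b an intracellular serine protease inhibitor. Jchain (GRCm38, chr5:88519809-88527891, minus strand) measured 147 (UN 9) to 619 (UN 3) CPM in the UN mice, with a median of 385, and 17.9, 25 and 9.87 CPM in the U mice. All UN mice, UN 2 included, lay far above the U mice, and Jchain rose (edgeR log2 fold change 4.44 ± 0.60 (SE), adjusted p = 0.0544). Serpinb6b (chr13:32965209-32979067, plus strand) measured 11.7 (UN 9) to 39 (UN 2) CPM in the UN mice, with a median of 20.5, and 2.29, 2.67 and 2.63 CPM in the U mice. Its groups lay far apart as well, and it rose (edgeR log2 fold change 3.28 ± 0.44 (SE), adjusted p = 0.0544). Emid1 (chr11:5106265-5152257, minus strand), which encodes an extracellular protein with an EMI domain and collagen repeats, measured 2.5 (UN 9) to 5.93 (UN 3) CPM in the UN mice, with a median of 3.92, and 20.7, 15.6 and 17.1 CPM in the U mice. It fell, with all 7 UN mice below U (edgeR log2 fold change -2.17 ± 0.30 (SE), adjusted p = 0.0544), but its call was lost in the fit with mice of the same number in a block (adjusted p = 0.113 in edgeR). Col23a1 (chr11:51289920-51583918, plus strand), a transmembrane collagen, measured 1.87 (UN 3) to 11.9 (UN 1) CPM in the UN mice, with a median of 3.41, and 48.1, 48.5 and 37.3 CPM in the U mice and also fell (edgeR log2 fold change -3.24 ± 0.47 (SE), adjusted p = 0.0735). The calls of all 4 held without UN 2, and without UN 2 and UN 6. Without UN 7 all 4 were lost and edgeR called 0 genes, with 1875 at an unadjusted p under 0.05. Col23a1 alone was kept without UN 1, Jchain and Serpinb6b without UN 4, and Col23a1 was lost without UN 3. Emid1 and Col23a1 were also lost when all mice were thinned to the lowest total count (adjusted p = 0.124 in edgeR for Col23a1). All 4 were lost when any single U mouse was left out, with 0 genes called by edgeR in either direction and 983 to 1282 genes at an unadjusted p under 0.05.

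**Figure D1:**
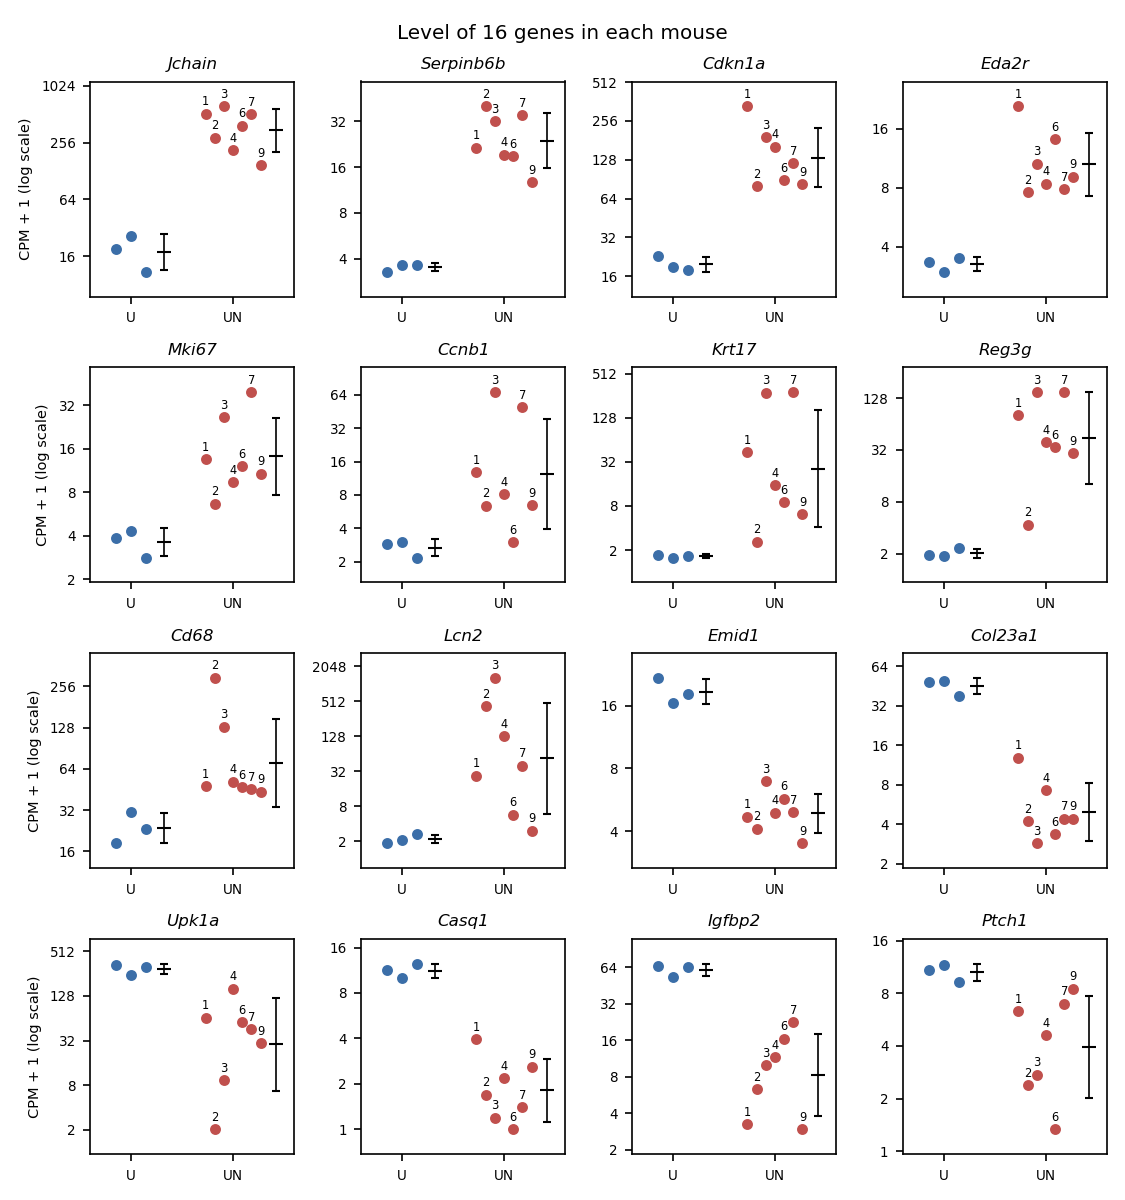
Level of 16 genes in each mouse, as CPM + 1 on a log scale, for 3 U mice (blue, both ureters summed) and 7 UN mice (red, labelled with the mouse number); the bar at the right of each group is the mean ± SD on the log2 scale. UN and U mice do not overlap for any of these genes, but the UN mice differ widely among themselves for Krt17, Lcn2 and Upk1a.

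Genes of the cell cycle were higher in UN throughout the list. Of 30 tested genes, 30 had a log2 fold change above 0, with a median of 2.21 against 0.10 over all genes tested, none was called by edgeR, and 23 had an unadjusted p under 0.05. The UN mice all lay above the U mice for 15 of the 30, and the group-variance fit called 25 higher and 0 lower. Without UN 2, 16 of 30 did not overlap, and without UN 2 and UN 6, 24 of 30, with 10 called by edgeR. In the 3 pairs of the replicate block, edgeR called 1 higher and 0 lower. Mki67, the marker of cycling cells, measured 5.66 (UN 2) to 38.4 (UN 7) CPM in the UN mice, with a median of 11.1, and 2.86, 3.31 and 1.82 CPM in the U mice. Its UN values were split between UN 3 and UN 7 at the top and the other 5 mice, all still above U (edgeR log2 fold change 2.58 ± 0.63 (SE), adjusted p = 0.208). Cdk1, the kinase that drives entry into mitosis, measured 5.57 (UN 4) to 64 (UN 3) CPM in the UN mice, with a median of 8.43, and 1.92, 2.65 and 2.3 CPM in the U mice (edgeR log2 fold change 3.13 ± 0.93 (SE), adjusted p = 0.224). Its partner cyclin Ccnb1 measured 2.02 (UN 6) to 66.4 (UN 3) CPM in the UN mice, with a median of 7.14, and 1.92, 2.01 and 1.19 CPM in the U mice (edgeR log2 fold change 3.63 ± 1.11 (SE), adjusted p = 0.233), and UN 6 barely cleared the U mice. Top2a, the topoisomerase that untangles replicated DNA, ranged from 8.08 to 66.1 CPM in UN against 3.23 to 4.18 in U (edgeR log2 fold change 2.57 ± 0.71 (SE), adjusted p = 0.209). Birc5, Bub1b, Plk1, Tpx2, Ube2c and Cenpf, all of mitosis, and Mcm5 and Rrm2, of DNA replication and nucleotide supply, did not overlap either, with log2 fold changes of 1.55 (Mcm5) to 3.1 (Bub1b).

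The 250 bases upstream of the transcription start are shown for 3 of these genes, because the members differed together and share a promoter element. They are RefSeq sequences of GRCm38.p6, written 5′ to 3′ on the strand of the gene, with CCAAT, or ATTGG where the element lies on the other strand, in capitals.
Ccnb1, chr13:100786487-100786736, minus strand: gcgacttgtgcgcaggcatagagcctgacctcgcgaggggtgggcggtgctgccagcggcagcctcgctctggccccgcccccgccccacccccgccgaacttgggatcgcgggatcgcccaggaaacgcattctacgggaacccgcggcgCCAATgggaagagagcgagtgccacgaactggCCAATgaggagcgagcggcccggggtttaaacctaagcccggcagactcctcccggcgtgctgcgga
Cdk1, chr10:69352913-69353162, minus strand: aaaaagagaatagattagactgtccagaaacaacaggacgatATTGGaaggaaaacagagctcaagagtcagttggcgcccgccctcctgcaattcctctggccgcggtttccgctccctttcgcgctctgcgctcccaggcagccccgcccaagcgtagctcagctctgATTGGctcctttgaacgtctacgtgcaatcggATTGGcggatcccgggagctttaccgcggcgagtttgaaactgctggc
Top2a, chr11:99024190-99024439, minus strand: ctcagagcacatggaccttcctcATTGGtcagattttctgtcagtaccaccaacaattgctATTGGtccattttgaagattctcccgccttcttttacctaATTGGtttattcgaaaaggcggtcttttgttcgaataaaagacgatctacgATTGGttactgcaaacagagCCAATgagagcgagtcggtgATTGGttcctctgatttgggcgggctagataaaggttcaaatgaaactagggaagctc
CCAAT, searched on both strands, occurred 2 times upstream of Ccnb1, 3 times upstream of Cdk1 and 6 times upstream of Top2a. Of the 25 cell cycle genes with a promoter in the RefSeq table, 21 (84%) held it, as did 11 of the 12 whose mice did not overlap, against 34.5% of 27025 promoters of the same length. Among all genes with every UN mouse above every U mouse it was found in 33.9% of 478 promoters, near the share of all promoters. TTTGAA, also searched on both strands, occurred in 8 of the 25 cell cycle promoters (32%) and in 16.3% of all. These matches describe the letters in the window only.

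p53 targets were higher in part. Of 24 tested genes, 23 had a log2 fold change above 0 (median 0.91), 5 did not overlap upward and 1 did downward, and the group-variance fit called 7 higher and 0 lower. edgeR called 0 of them, with 10 at an unadjusted p under 0.05. Cdkn1a, the p21 inhibitor of cyclin-dependent kinases, measured 78.9 (UN 2) to 331 (UN 1) CPM in the UN mice, with a median of 120.04, and 22.1, 18 and 16.8 CPM in the U mice. Every UN mouse, UN 2 and UN 6 included, lay well above the highest U mouse (edgeR log2 fold change 2.98 ± 0.52 (SE), adjusted p = 0.167, and 0.0969 with the block; adjusted p = 0.00194 in the group-variance fit). Eda2r, a death receptor of the TNF receptor family, ranged from 6.58 to 19.8 CPM in UN against 1.98 to 2.49 in U (edgeR log2 fold change 2.17 ± 0.44 (SE), adjusted p = 0.205). Bax, which permeabilizes mitochondria in apoptosis, ranged from 43.7 to 120.5 CPM in UN against 27.2 to 31.3 in U, and Gdf15, a secreted stress cytokine, from 0.675 to 6.28 CPM in UN against 0.0337 to 0.116 in U. Ckap2, a spindle protein, also lay above U in every UN mouse. The anchors Mdm2, the ligase that degrades p53, and Ccng1, cyclin G1, overlapped between groups, at 31.4 to 84.8 CPM in UN against 41.7 to 47.5 in U and 231 to 416 CPM in UN against 233 to 261 in U. Bbc3, the apoptosis inducer PUMA, was the member with every UN mouse below U (2.89 to 5.31 CPM in UN against 6.28 to 8.54 in U). Of the p53 target genes, 8 above and 1 below U were separated without UN 2 (median 0.89), and 13 above and 1 below U without both mice (median 0.87), where edgeR called 8 higher and 0 lower, against 3 and 0 without UN 2 alone, and in the 3 pairs of the replicate block edgeR called 1 higher and 0 lower.

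**Figure D2:**
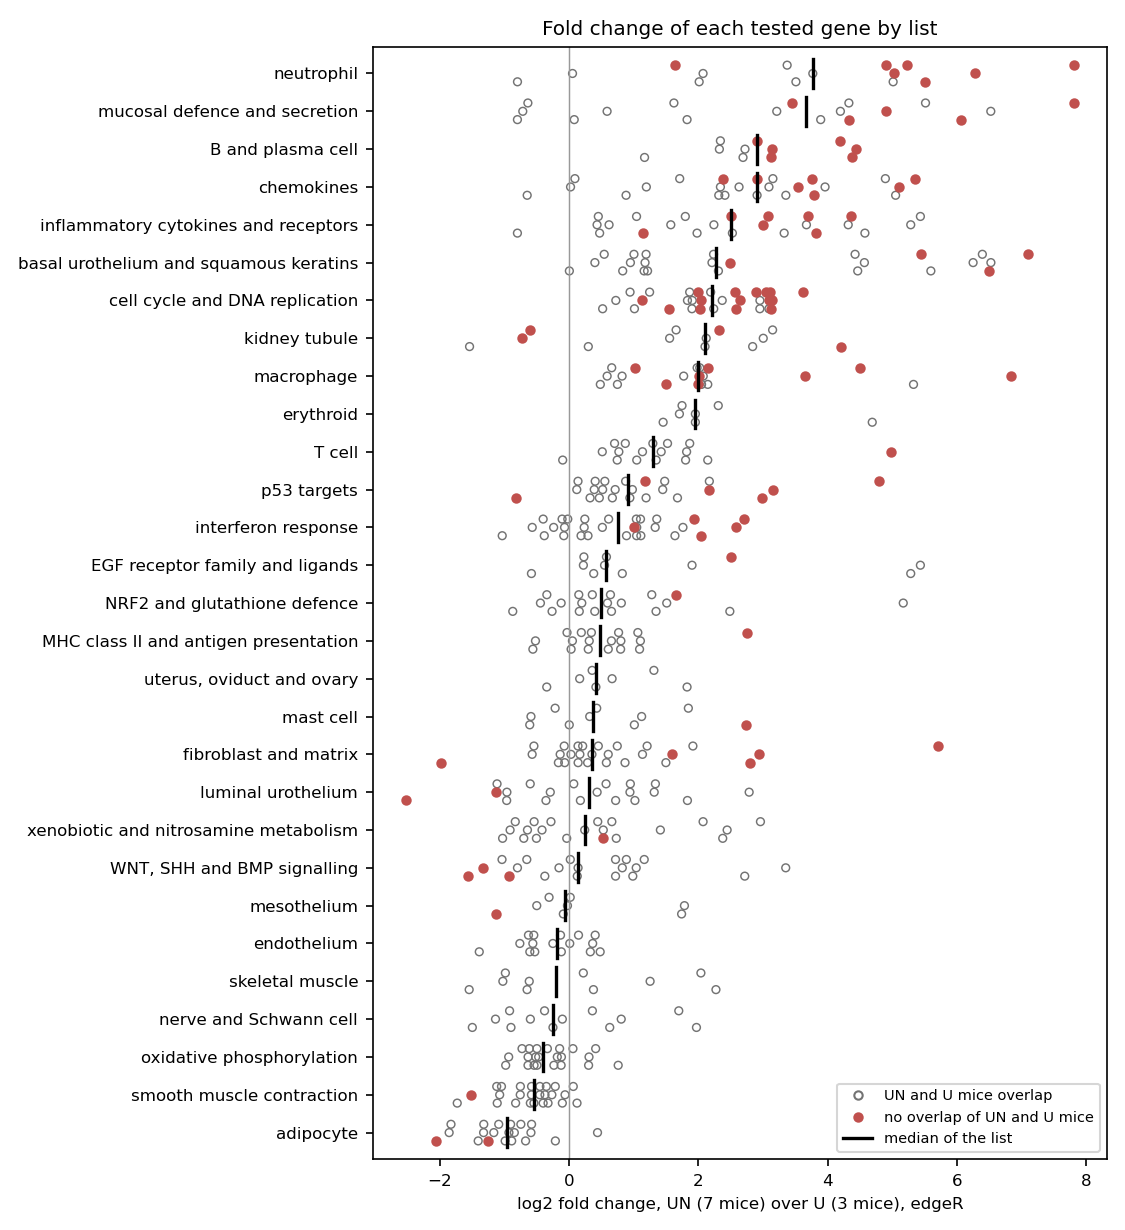
The log2 fold change of UN over U (edgeR, 7 against 3 mice) for each tested member of 29 gene lists, ordered by the list median (black bar); red points are genes for which no UN mouse overlapped a U mouse. Medians run from -0.96 for adipocyte genes to 3.77 for neutrophil genes with all 7 UN mice.

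Basal and squamous genes were higher in most UN mice. Among 24 tested basal and squamous genes, 24 had a log2 fold change above 0, with a median of 2.27, 4 did not overlap and the group-variance fit called 12 higher and 0 lower. None was called by edgeR, and 14 had an unadjusted p under 0.05. Krt14, the keratin of basal cells that are proliferating or squamous, measured 7.16 (UN 2) to 2750.4 (UN 3) CPM in the UN mice, with a median of 198, and 8.38, 6.77 and 8.28 CPM in the U mice. UN 2 fell within the range of the U mice and the other 6 were above it (edgeR log2 fold change 6.4 ± 1.82 (SE), adjusted p = 0.216). Krt17, induced in injured and squamous epithelium, measured 1.62 (UN 2) to 285 (UN 7) CPM in the UN mice, with a median of 14.3, and 0.741, 0.581 and 0.668 CPM in the U mice (edgeR log2 fold change 7.09 ± 1.93 (SE), adjusted p = 0.209), so that even UN 2 exceeded the U mice. Krt16, a keratin of activated keratinocytes, Dsg3, a desmosomal cadherin, and Cdh3, P-cadherin, did not overlap either. Krt5 itself ranged from 3.69 to 2167 CPM in UN against 113 to 137 in U and Krt6a from 1.5 to 424 CPM in UN against 2.38 to 2.6 in U. Without UN 2, 10 of the 24 did not overlap, and without UN 2 and UN 6, 12 did not and edgeR called 10. UN 2 was set aside for its low urothelial markers, Krt5 among them, so these counts draw on the values used to choose it. With the replicate block, edgeR called 0 higher and 0 lower.

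Luminal genes divided. Of 20 tested, 12 had a log2 fold change above 0 (median 0.30, but -0.52 in the group-variance fit), 0 did not overlap upward and 2 did downward, Upk1a and Upk3b, and the group-variance fit called 0 higher and 3 lower. edgeR called 0, with 3 at an unadjusted p under 0.05. Upk1a, a tetraspanin of the uroplakin plaques, measured 1.04 (UN 2) to 159 (UN 4) CPM in the UN mice, with a median of 44.7, and 333, 243 and 316 CPM in the U mice (edgeR log2 fold change -2.53 ± 0.87 (SE), adjusted p = 0.255). The group-variance fit placed it lower as well (adjusted p = 0.0152 in the group-variance fit). Upk2 ranged from 0.346 to 92.5 CPM in UN against 81.1 to 111 in U, and Pparg, a regulator of urothelial and of fat cell differentiation, from 80.9 to 314 CPM in UN against 307 to 365 in U. Of the luminal genes, 2 above and 3 below U were separated without UN 2 (median 0.50), and 3 above and 3 below U without both mice (median 0.60), where edgeR called 3 higher and 0 lower. The group-variance fit of luminal genes gave 3 higher and 4 lower without UN 2, and 7 and 2 without both. Over all genes that fit called 9.59% higher and 7.23% lower without UN 2, and 10% and 8.04% without both mice. UN 2 was set aside for its low urothelial markers, and UN 2 and UN 6 had the lowest luminal medians, -5.09 and -1.06 as log2 ratios to U. The counts without them therefore cannot decide a direction for the luminal genes.

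Because the levels of urothelial markers varied among the libraries, the CPM of urothelial genes were also divided by each other within each mouse. These ratios were chosen after the values were seen and carry no test, and since gene length enters them they are compared only between mice. The ratio of Krt14 to Krt5 was 0.339 to 1.94 in the UN mice, with a median of 0.945, against 0.061, 0.0598 and 0.0714 in the U mice. It was thus several-fold higher in every UN mouse, also in UN 2, where it rests on 62 counts of Krt14 and 32 of Krt5. Krt17 to Krt5 was 0.0483 to 0.438 in the UN mice, with a median of 0.12, against 0.00539, 0.00514 and 0.00576 in the U mice. Upk1a to Upk1b, both tetraspanins of the plaque, was 0.0346 to 0.285 in the UN mice, with a median of 0.136, against 0.667, 0.723 and 0.702 in the U mice, with all 7 UN mice below, but UN 2's ratio rests on 9 counts of Upk1a over 41 of Upk1b. Upk2 to Upk1b was also below U in 7 of 7 UN mice (0.0732 to 0.175 against 0.222 to 0.241), where UN 2's ratio rests on 3 counts of Upk2, while Upk3a to Upk1b overlapped. Krt5 to Upk1b was 0.362 to 9.07 in the UN mice, with a median of 0.78, against 0.275, 0.336 and 0.257 in the U mice, with UN 3 and UN 7 far above the rest.

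**Figure D3:**
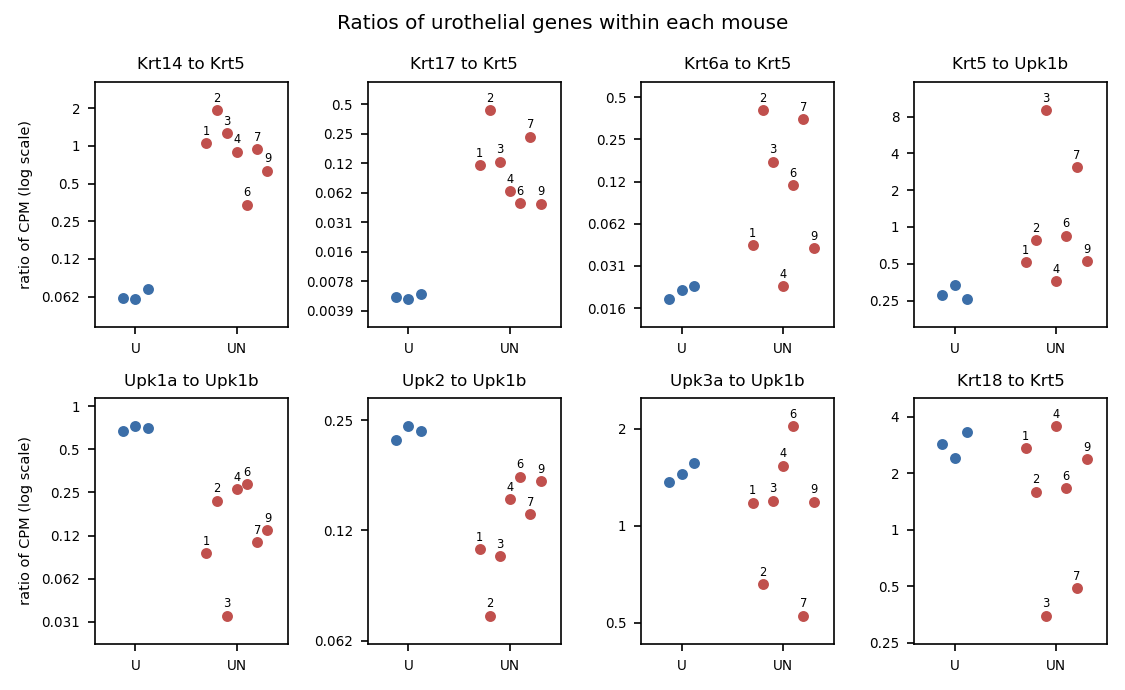
Ratios of the CPM of 2 urothelial genes within each mouse on a log scale, for 3 U mice (blue) and 7 UN mice (red, labelled with the mouse number). The ratios of Krt14, Krt17, Krt6a and Upk1b-normalized Krt5 lie above U in all 7 UN mice and those of Upk1a and Upk2 to Upk1b below, while Upk3a to Upk1b and Krt18 to Krt5 overlap.

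Mucosal defence genes were among the largest fold changes, with large spread. Of 18 tested, 15 had a log2 fold change above 0 (median 3.67), 5 did not overlap upward and 0 downward, and the group-variance fit called 9 higher and 1 lower (complement C3). edgeR called 0, with 11 at an unadjusted p under 0.05. The summed CPM of the list, 1496 to 5344 CPM in UN against 2639 to 3324 in U, was above every U mouse in 3 UN mice and below in 3. Reg3g, a secreted antibacterial lectin, measured 3.35 (UN 2) to 149 (UN 3) CPM in the UN mice, with a median of 38.6, and 0.909, 0.872 and 1.3 CPM in the U mice (edgeR log2 fold change 6.06 ± 1.13 (SE), adjusted p = 0.176). Without UN 2, the mouse nearest to U, its adjusted p in edgeR was 0.0328. Pigr, the receptor that carries polymeric IgA across epithelium, measured 2.31 (UN 2) to 93.1 (UN 1) CPM in the UN mice, with a median of 43.1, and 2.53, 3.05 and 2.004 CPM in the U mice (edgeR log2 fold change 4.33 ± 0.91 (SE), adjusted p = 0.205). UN 2 lay inside the range of U and the other 6 UN mice were at least 26.9 CPM. Without UN 2, edgeR called Pigr higher (adjusted p = 0.0165). Lcn2, the iron-binding lipocalin of epithelium and neutrophils, measured 2.05 (UN 9) to 1283 (UN 3) CPM in the UN mice, with a median of 39.1, and 0.909, 1.08 and 1.63 CPM in the U mice (edgeR log2 fold change 7.81 ± 2.23 (SE), adjusted p = 0.219, and 0.0969 with the block). Slpi, an antiprotease of mucosal surfaces, Ltf, lactoferrin, and Duoxa2, the maturation factor of a hydrogen peroxide generating oxidase, did not overlap either, whereas Saa1, an acute phase protein, ranged from 0.0758 to 29.2 CPM in UN against 0 to 0.223 in U. Of the mucosal defence genes, 7 above and 0 below U were separated without UN 2 (median 3.81), and 8 above and 0 below U without both mice (median 3.94), where edgeR called 6 higher and 0 lower, against 2 and 0 without UN 2 alone, and in the 3 pairs of the replicate block edgeR called 3 higher and 0 lower.

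Ligands and receptors of the EGF family were examined together. Areg, amphiregulin, ranged from 0.231 to 29.96 CPM in UN against 0.174 to 0.52 in U, and Hbegf from 6.24 to 48.7 CPM in UN against 2.85 to 3.43 in U, with no overlap for Hbegf. Egfr and Erbb2 overlapped, at 10.8 to 47.9 CPM in UN against 12.3 to 22.2 in U and 4.96 to 71.4 CPM in UN against 28.4 to 39.3 in U. Of 11 tested genes of this family, edgeR called 0, with 4 at an unadjusted p under 0.05, and the group-variance fit called 4 higher (Areg, Ereg, Hbegf and Nrg1) and 0 lower. The median log2 fold change was 0.58. Of the EGF family genes, 3 above and 0 below U were separated without UN 2 (median 0.78), and 4 above and 1 below U without both mice (median 1.07), where edgeR called 3 higher and 0 lower, against 1 and 0 without UN 2 alone.

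Inflammatory cytokines and chemokines were mostly higher. Of 24 tested cytokines and receptors, 23 had a log2 fold change above 0 (median 2.51), 7 did not overlap, all upward, and the group-variance fit called 14 higher and 0 lower. edgeR called 0, with 16 at an unadjusted p under 0.05. Without UN 2, 9 did not overlap and edgeR called 1 higher, and without UN 2 and UN 6, 13 did not overlap and edgeR called 9 higher. The replicate block gave calls of 1 higher and 0 lower. Tnfrsf1b, the TNF receptor of leukocytes, measured 35.1 (UN 6) to 75.1 (UN 2) CPM in the UN mice, with a median of 45.5, and 21.4, 26.2 and 22.3 CPM in the U mice (edgeR log2 fold change 1.14 ± 0.26 (SE), adjusted p = 0.208). Il1rn, the antagonist of interleukin 1, measured 3.04 (UN 6) to 73.5 (UN 3) CPM in the UN mice, with a median of 21, and 2.69, 1.57 and 2.67 CPM in the U mice (edgeR log2 fold change 3.82 ± 0.91 (SE), adjusted p = 0.208, and 0.0969 with the block). Il33, an alarmin of epithelial nuclei, was highest in UN 3 and UN 7 (30.7 to 657 CPM in UN against 21.4 to 28.4 in U). Osm, a cytokine of the IL-6 family, Ptgs2, the inducible prostaglandin synthase, and Il1r2, a decoy receptor, also did not overlap. The anchors Il1b (0.675 to 58.5 CPM in UN against 0.774 to 1.15 in U), Il6 (0.185 to 5.08 CPM in UN against 0 to 0.186 in U) and Tnf (0.115 to 2.58 CPM in UN against 0.202 to 0.557 in U) overlapped, with log2 fold changes of 4.32, 4.58 and 1.8.

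Among 24 tested chemokines, 23 had a log2 fold change above 0 (median 2.91), 7 did not overlap, all upward, and the group-variance fit called 18 higher and 1 lower, Cxcl9. edgeR called 0, with 18 at an unadjusted p under 0.05. Of the chemokine genes, 7 above and 0 below U were separated without UN 2 (median 2.21), and 11 above and 1 below U without both mice (median 2.35), where edgeR called 10 higher and 0 lower, and in the 3 pairs of the replicate block edgeR called 5 higher and 0 lower. UN 2 had the highest chemokine sum, 12015 CPM, against 960 to 3635 in the other UN mice and 501 to 626 in U. Cxcl16, a transmembrane chemokine of epithelium and macrophages, measured 41.6 (UN 9) to 228 (UN 3) CPM in the UN mice, with a median of 57, and 14.3, 15.9 and 20.6 CPM in the U mice (edgeR log2 fold change 2.37 ± 0.55 (SE), adjusted p = 0.208, and 0.0969 with the block). Cxcl5, which attracts neutrophils, measured 0.706 (UN 4) to 17.5 (UN 7) CPM in the UN mice, with a median of 1.97, and 0.202, 0.0581 and 0.186 CPM in the U mice (edgeR log2 fold change 5.35 ± 1.35 (SE), adjusted p = 0.209, and 0.0969 with the block). The monocyte attractants Ccl7 and Ccl12 and the macrophage product Ccl9 were highest in UN 2, at 119, 145 and 954 CPM, and exceeded U in every UN mouse. Ccl3 and Ccl17 did not overlap either. Ccl2 ranged from 1.35 to 40.6 CPM in UN against 0.505 to 1.66 in U and Cxcl1 from 0.337 to 9.93 CPM in UN against 0.505 to 0.61 in U, with UN 6 not above the U mice for either gene. The consensus of NF-kB sites, searched on both strands with any base allowed at 2 inner positions, occurred upstream of 4 of 17 chemokine genes (23.5%) and of 2 of 19 cytokine genes (10.5%), against 1.40% of all promoters. Among the genes that did not overlap it was found in 1 of 4 chemokine and 0 of 5 cytokine promoters. TGANTCA, the AP-1 pattern, which is its own reverse complement, occurred upstream of 2 chemokine genes and of 5 cytokine genes (26.3%), against 6.87% of all, and of 1 of the 4 and 1 of the 5 that did not overlap.

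B and plasma cell genes were higher in UN, with Jchain the called member. Of 11 tested, 11 had a log2 fold change above 0 (median 2.91), 6 did not overlap, and the group-variance fit called 10 higher and 0 lower. edgeR called 1 higher, Jchain, with 10 at an unadjusted p under 0.05. Mzb1, a chaperone of antibody secretion, measured 5.54 (UN 9) to 29.4 (UN 7) CPM in the UN mice, with a median of 10.1, and 0.337, 1.4 and 0.52 CPM in the U mice (edgeR log2 fold change 4.2 ± 0.75 (SE), adjusted p = 0.167, and 0.0969 with the block). Cd79a, part of the B cell receptor, measured 6.6 (UN 1) to 76.8 (UN 3) CPM in the UN mice, with a median of 20.3, and 1.68, 5.64 and 2.3 CPM in the U mice (edgeR log2 fold change 3.14 ± 0.84 (SE), adjusted p = 0.209). Cd79b, Fcrla and Pou2af1, of the B lineage as well, did not overlap either. With UN 2 and UN 6 left out, edgeR called 3 of the list higher. In the fit with the replicate block it called 2 higher and 0 lower, Jchain and Mzb1.

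Macrophage genes had positive fold changes throughout. Of 20 tested, 20 had a log2 fold change above 0 (median 2.0), 8 did not overlap and the group-variance fit called 14 higher and 0 lower. edgeR called 0, with 15 at an unadjusted p under 0.05. Cd68, a lysosomal protein, measured 42.5 (UN 9) to 294 (UN 2) CPM in the UN mice, with a median of 47, and 17.5, 29.8 and 22.3 CPM in the U mice (edgeR log2 fold change 2.01 ± 0.70 (SE), adjusted p = 0.255), with UN 2 and UN 3 above the other 5. Trem2, a lipid-sensing receptor, measured 3.04 (UN 6) to 61.4 (UN 2) CPM in the UN mice, with a median of 18.2, and 1.28, 1.51 and 2.08 CPM in the U mice (edgeR log2 fold change 3.65 ± 0.85 (SE), adjusted p = 0.208, and 0.0969 with the block). C1qc, Gpnmb, Spp1, Ms4a7 and Mpeg1 also exceeded U in every UN mouse. Adgre1 (F4/80) and Csf1r overlapped, at 25.7 to 128 CPM in UN against 26.6 to 36.3 in U and 23.6 to 269 CPM in UN against 65.4 to 93.5 in U. UN 2 had the highest level of all 3 anchors, and without it the list median was 1.32, with 8 genes not overlapping. Without both mice 13 did not overlap, the median was 1.42 and edgeR called 6 higher. In the 3 pairs of the replicate block, which include UN 2 and UN 3, the mice with the highest macrophage medians, it also called 6.

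Neutrophil genes had a list median of 3.77, the highest with all 7 UN mice but below that of mucosal defence genes without UN 2 and without both mice. Of 15 tested, 14 had a log2 fold change above 0, 7 did not overlap upward, and the group-variance fit called 10 higher and 1 lower (Hcar2, a hydroxycarboxylic acid receptor also expressed by fat cells). edgeR called 0, with 11 at an unadjusted p under 0.05. S100a8, a calcium-binding protein of neutrophils, measured 2.84 (UN 1) to 182 (UN 2) CPM in the UN mice, with a median of 4.56, and 1.11, 1.28 and 0.779 CPM in the U mice (edgeR log2 fold change 5.03 ± 1.63 (SE), adjusted p = 0.24). It was highest in UN 2 and UN 3, and S100a9, its partner, behaved alike (1.97 to 146 CPM in UN against 0.669 to 0.909 in U). Cxcr2, the receptor for neutrophil chemokines, overlapped and was highest in UN 6 (3.56 to 69.9 CPM in UN against 3.23 to 4.3 in U). Csf3r, Mmp8 and Trem1 did not overlap either. Lcn2 and Ltf, counted here too, are also made by epithelium. Of the neutrophil genes, 7 above and 0 below U were separated without UN 2 (median 3.3), and 8 above and 0 below U without both mice (median 3.45), where edgeR called 6 higher and 0 lower, and in the 3 pairs of the replicate block edgeR called 4 higher and 0 lower.

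The T cell, mast cell and antigen presentation lists had 1 separated member each, or 5.88%, 10% and 5.56% of their genes against 4.14% over all genes, and the interferon list had 5 of 30 (16.7%). For 17 T cell genes (median 1.29) only Ctla4, an inhibitory receptor, did not overlap (0.706 to 13.9 CPM in UN against 0.0337 to 0.186 in U), and the group-variance fit called 4 higher. Cd3e (0.693 to 17.9 CPM in UN against 0.943 to 3.79 in U), Cd4 (1.62 to 17.2 CPM in UN against 1.13 to 2.29 in U) and Cd8a (0.115 to 4.07 CPM in UN against 0.494 to 4.56 in U) overlapped. Of 10 mast cell genes (median 0.37), Tpsab1, a tryptase, did not overlap (3.93 to 32.7 CPM in UN against 2.15 to 2.89 in U), whereas Cpa3, Mcpt4 and Kit did, with log2 fold changes of 0.32, -0.59 and -0.61, and the group-variance fit called 2 higher. Of 18 genes of MHC class II presentation (median 0.47), H2-Oa did not overlap and was the member called by the group-variance fit, and H2-Aa, Cd74 and Ciita overlapped. Of the T cell genes, 1 above and 0 below U were separated without UN 2 (median 1.4), and 2 above and 0 below U without both mice (median 1.1), where edgeR called 1 higher and 0 lower, and in the 3 pairs of the replicate block edgeR called 1 higher and 0 lower. Of the mast cell genes, 1 above and 0 below U were separated without UN 2 (median 0.42), and 3 above and 0 below U without both mice (median 0.25), where edgeR called 1 higher and 0 lower, and in the 3 pairs of the replicate block edgeR called 1 higher and 0 lower. Of the MHC class II genes, 1 above and 0 below U were separated without UN 2 (median 0.31), and 1 above and 0 below U without both mice (median 0.41), where edgeR called 1 higher and 0 lower. Of 30 interferon response genes (median 0.75), Isg15, Oas3, Mx1, Zbp1 and Trim30a did not overlap, and the group-variance fit called 6 higher and 1 lower. The summed CPM of the interferon genes was 1362 to 8654 CPM in UN against 3398 to 5272 in U, below every U mouse in 5 of 7 UN mice and above in 2. Isg15, a ubiquitin-like modifier, measured 5.06 (UN 6) to 26.9 (UN 7) CPM in the UN mice, with a median of 7.43, and 2.09, 3.14 and 3.97 CPM in the U mice (edgeR log2 fold change 1.93 ± 0.59 (SE), adjusted p = 0.228). Ifit1 and Irf7 overlapped, at 8.31 to 70.1 CPM in UN against 5.45 to 9.87 in U and 20.9 to 135 CPM in UN against 28 to 34.7 in U. edgeR called 0 genes of these 4 lists, with 4, 2, 1 and 9 at an unadjusted p under 0.05. Of the interferon genes, 6 above and 0 below U were separated without UN 2 (median 0.56), and 8 above and 1 below U without both mice (median 0.61), where edgeR called 5 higher and 0 lower.

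Genes of carcinogen and oxidant metabolism had 1 separated member a list, 4.76% of the xenobiotic and 5% of the NRF2 genes, near the 4.14% over all genes. Of 21 tested xenobiotic genes (median 0.24, but -0.31 in the group-variance fit), Ugt1a1, a glucuronidating enzyme that shares exons with other Ugt1a genes, did not overlap (22.8 to 39.1 CPM in UN against 19.8 to 20.2 in U, log2 fold change 0.52), and the group-variance fit called 1 higher and 2 lower. The summed CPM of the xenobiotic genes was 3019.8 to 12299.8 CPM in UN against 10953 to 13104 in U, and was below every U mouse in 5 of 7 UN mice. Cyp2e1, the cytochrome known for small nitrosamines, ranged from 1019.9 to 9862 CPM in UN against 8313 to 10318 in U, Cyp1a1 from 0.0645 to 4.5 CPM in UN against 1.15 to 1.72 in U, and Cyp2b10 from 1.82 to 158 CPM in UN against 1.48 to 5.22 in U with UN 4 alone over 100 CPM. Of 20 genes of NRF2 and glutathione defence (median 0.49), Slc7a11, the cystine importer, did not overlap (6.6 to 46.4 CPM in UN against 4.59 to 6.01 in U), and the group-variance fit called 3 higher and 1 lower. Their summed CPM was 5095 to 9521 CPM in UN against 7768 to 9512 in U, below every U mouse in 5 of 7 UN mice. Nqo1, a quinone reductase induced by NRF2, was above U in 6 of 7 UN mice (14.8 to 133 CPM in UN against 20.9 to 24.6 in U). Hmox1 and Gclc overlapped, with log2 fold changes of 1.34 and 0.15. edgeR called 0 in either list, with 4 and 3 genes at an unadjusted p under 0.05. Of the xenobiotic genes, 1 above and 1 below U were separated without UN 2 (median 0.37), and 4 above and 1 below U without both mice (median 0.37), where edgeR called 3 higher and 0 lower. The group-variance fit of xenobiotic genes gave 3 higher and 4 lower without UN 2, and 3 and 2 without both. Of the NRF2 genes, 4 above and 0 below U were separated without UN 2 (median 0.48), and 8 above and 0 below U without both mice (median 0.66), where edgeR called 2 higher and 0 lower. The group-variance fit of NRF2 genes gave 5 higher and 1 lower without UN 2, and 5 and 0 without both.

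Smooth muscle and adipocyte genes had negative list medians, with 0 calls by edgeR in the smooth muscle and adipocyte lists and 1 gene in each at an unadjusted p under 0.05. Of 25 smooth muscle genes, 2 had a log2 fold change above 0 (median -0.55), 1 lay below U in every UN mouse, Hspb6, a small heat shock protein of muscle (9.16 to 52.8 CPM in UN against 59.6 to 75.8 in U), and the group-variance fit called 0 higher and 7 lower. Their summed CPM was 2194 to 10470 CPM in UN against 6309 to 7619.8 in U, below every U mouse in 5 UN mice and above in UN 1. Myh11, the smooth muscle myosin, ranged from 28.6 to 1571 CPM in UN against 583 to 907 in U, and was lowest in UN 3 and UN 2. Acta2 and Cnn1 overlapped as well, with log2 fold changes of -0.55 and -0.33. Of 20 adipocyte genes, 1 had a log2 fold change above 0 (median -0.96), Adrb3 and Lpl did not overlap, and the group-variance fit called 0 higher and 15 lower. Adipoq ranged from 366 to 4019 CPM in UN against 2832 to 3834 in U, Plin1 from 49.97 to 647 CPM in UN against 537 to 587 in U and Cidec from 661 to 6273 CPM in UN against 4657 to 5810.02 in U. The summed CPM of the 20 adipocyte genes was 14172 to 135061 CPM in UN against 99069 to 120416 in U, and was lowest in UN 7, UN 3 and UN 1. These 3 mice were also highest in Krt17, Krt14 and Mki67. The part of the fat content in the other results was not tested. Of the smooth muscle genes, 0 above and 1 below U were separated without UN 2 (median -0.42), and 0 above and 3 below U without both mice (median -0.26), where edgeR called 0 higher and 0 lower. Of the adipocyte genes, 0 above and 6 below U were separated without UN 2 (median -1.29), and 0 above and 7 below U without both mice (median -1.37), where edgeR called 0 higher and 0 lower, and in the 3 pairs of the replicate block edgeR called 0 higher and 1 lower. The group-variance fit of adipocyte genes gave 0 higher and 18 lower without UN 2, and 0 and 18 without both.

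Fibroblast and matrix genes (27 tested, median 0.35) included Timp1, an inhibitor of matrix proteases, Mmp3, a matrix protease, Inhba, an activin subunit, and Col12a1, a fibril-associated collagen, all above U in every UN mouse, and Spon1, below it. Timp1 measured 4.72 (UN 6) to 170.3 (UN 3) CPM in the UN mice, with a median of 15.1, and 0.707, 0.988 and 1.6 CPM in the U mice (edgeR log2 fold change 5.71 ± 1.52 (SE), adjusted p = 0.209, and 0.0969 with the block). Col1a1, Fn1 and Postn overlapped, with log2 fold changes of -0.07, 0.60 and 0.03. edgeR called 0 of this list, with 8 at an unadjusted p under 0.05, and the group-variance fit called 6 higher and 1 lower. Of the fibroblast and matrix genes, 4 above and 1 below U were separated without UN 2 (median 0.15), and 7 above and 1 below U without both mice (median 0.30), where edgeR called 5 higher and 1 lower, and in the 3 pairs of the replicate block edgeR called 2 higher and 0 lower. Endothelial genes (16 tested, median -0.19) and nerve genes (13 tested, median -0.25) had 0 members without overlap. Pecam1 and Cdh5 had log2 fold changes of -0.12 and -0.13, and the VEGF receptor Kdr of -1.39 (6.07 to 164 CPM in UN against 104 to 119.97 in U), which the group-variance fit called lower. Sox10 and S100b, of Schwann cells, overlapped, at log2 fold changes of -1.14 and -0.11. Oxidative phosphorylation genes (22 tested, median -0.41) had 0 without overlap, and Ndufa4, Cox4i1 and Atp5b had log2 fold changes of 0.31, -0.19 and -0.64. edgeR called 0 in the endothelial, nerve and oxidative phosphorylation lists, with 0, 1 and 1 at an unadjusted p under 0.05. The group-variance fit called 3 of the 13 nerve genes lower (23.1%, against 6.23% over all genes), Gfra3, Kcna1 and Uchl1, and 0 higher, with 1 higher and 2 lower without UN 2 and also without both mice. It called 2 oxidative phosphorylation genes lower, Ndufs1 and Sdha, and 0 higher, with 6 lower without UN 2 and 4 lower without both mice. Of the endothelial genes, 0 above and 0 below U were separated without UN 2 (median -0.29), and 0 above and 0 below U without both mice (median -0.33), where edgeR called 0 higher and 0 lower, and in the 3 pairs of the replicate block edgeR called 0 higher and 1 lower. Of the nerve genes, 0 above and 1 below U were separated without UN 2 (median -0.46), and 2 above and 1 below U without both mice (median -0.43), where edgeR called 0 higher and 0 lower. Of the oxidative phosphorylation genes, 0 above and 1 below U were separated without UN 2 (median -0.62), and 0 above and 3 below U without both mice (median -0.69), where edgeR called 0 higher and 0 lower.

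In the signalling list of WNT, SHH and BMP (20 tested, median 0.13, but -0.12 in the group-variance fit), the members separated with all 7 UN mice were below U: Ptch1, the receptor of SHH, Hhip, its decoy, and Wnt5a. Ptch1 measured 0.337 (UN 6) to 7.51 (UN 9) CPM in the UN mice, with a median of 3.61, and 9.87, 10.6 and 8.28 CPM in the U mice (edgeR log2 fold change -1.34 ± 0.61 (SE), adjusted p = 0.354). Hhip ranged from 1.14 to 6.9 CPM in UN against 7.76 to 9.29 in U. Shh, secreted by urothelium, ranged from 0 to 6.9 CPM in UN against 6.42 to 9.76 in U and was at 0 in UN 2, and Gli1 and Bmp4 had log2 fold changes of 0.02 and 0.82. edgeR called 0, with 4 at an unadjusted p under 0.05, and the group-variance fit called 2 higher and 4 lower. Of the signalling genes, 2 above and 3 below U were separated without UN 2 (median 0.29), and 4 above and 3 below U without both mice (median 0.25), where edgeR called 3 higher and 0 lower. The group-variance fit of signalling genes gave 3 higher and 3 lower without UN 2, and 4 and 4 without both. The separated members were thus on 1 side only with all 7 UN mice.

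The marker genes of neighbouring tissues overlapped for the most part, with the exceptions named here. The kidney tubule genes Umod, Slc12a1 and Slc34a1 did not exceed 6.58, 5.74 and 5.43 CPM, with the highest Umod and Slc34a1 in UN 2 and the highest Slc12a1 in UN 6. The 20 kidney genes summed to 115 to 233 CPM in UN against 207 to 229.9 in U, below every U mouse in 6 of 7 UN mice, and of 13 tested (median 2.1) 2 lay above U in every UN mouse, Slc34a1 and Napsa, and 2 below, Aqp1 and Slc5a2. Without UN 2 and UN 6 the kidney median was -0.15. Skeletal muscle genes summed to 19.3 to 170.4 CPM in UN against 44.4 to 58.5 in U (median -0.20, 0 of 10 without overlap), and the anchors Acta1, Ckm and Myh4 reached 7.24, 15.3 and 6.07 CPM. Red cell genes summed to 181 to 16239 CPM in UN against 719.7 to 1429 in U, highest in UN 2 and UN 6. Hba-a1, Hbb-bt and Alas2 overlapped between groups, and the erythroid median, 1.95, was -0.08 without UN 2 and UN 6. Genes of uterus, oviduct and ovary summed to 13.5 to 677 CPM in UN against 73.9 to 90.1 in U and Ovgp1 measured 1.27 to 2.98 CPM in UN against 1.002 to 1.31 in U, with 0 of 7 tested without overlap and a median log2 fold change of 0.41. Mesothelial genes summed to 53.7 to 106 CPM in UN against 84.3 to 123 in U (median -0.06), with Msln at 3.04 to 46.2 CPM in UN against 1.78 to 13.2 in U and Lrrn4 at 1.22 to 9.1 CPM in UN against 3.5 to 11.7 in U, and the member below U in every UN mouse was Upk3b, which umbrella cells also express. edgeR called 0 genes of these 5 lists, with 4 kidney, 1 skeletal muscle, 0 reproductive tract, 1 erythroid and 0 mesothelial genes at an unadjusted p under 0.05. The group-variance fit called 4 of the 13 kidney genes higher (30.8%, against 8.87% over all genes), Slc34a1, Pax8, Ggt1 and Napsa, and 0 lower. It called 1 skeletal muscle gene higher, Neb, and 3 lower, Ckm, Mb and Myl1, 1 mesothelial gene lower, Upk3b, and 0 of the reproductive tract, and its erythroid calls are not reported here. The part of these tissues in the other results was not tested. Of the kidney genes, 2 above and 2 below U were separated without UN 2 (median 1.44), and 2 above and 2 below U without both mice (median -0.15), where edgeR called 0 higher and 0 lower, and in the 3 pairs of the replicate block edgeR called 1 higher and 0 lower. Of the skeletal muscle genes, 0 above and 1 below U were separated without UN 2 (median -0.33), and 0 above and 2 below U without both mice (median -0.37), where edgeR called 0 higher and 0 lower. Of the erythroid genes, 0 above and 0 below U were separated without UN 2 (median 0.66), and 0 above and 0 below U without both mice (median -0.08), where edgeR called 0 higher and 0 lower. Of the reproductive tract genes, 1 above and 0 below U were separated without UN 2 (median 0.56), and 1 above and 0 below U without both mice (median 0.70), where edgeR called 0 higher and 0 lower. Of the mesothelial genes, 0 above and 1 below U were separated without UN 2 (median -0.39), and 0 above and 1 below U without both mice (median -0.36), where edgeR called 0 higher and 0 lower.

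Over all genes, the group-variance fit gave its smallest p, among higher, non-overlapping genes with a mean of at least 5 CPM, to Serpinb6b, Cdkn1a, Jchain, Ier3 and Cebpd. These genes and those in the rest of this paragraph were chosen after their values were seen. Ier3, an immediate early gene, measured 22.9 (UN 9) to 79.6 (UN 7) CPM in the UN mice, with a median of 38.9, and 8.65, 8.75 and 9.65 CPM in the U mice (edgeR log2 fold change 2.3 ± 0.42 (SE), adjusted p = 0.167, and 0.0969 with the block). Cebpd, a transcription factor of the acute phase response, ranged from 14.8 to 107 CPM in UN against 9.16 to 10.9 in U. Dusp2, a phosphatase of MAP kinases, and Ifitm1, an interferon-induced membrane protein, ranged from 3.69 to 8.25 CPM in UN against 0.61 to 1.19 in U and 24.3 to 77.6 CPM in UN against 7.51 to 14 in U. Olfm4, an epithelial glycoprotein, ranged from 0.693 to 14.2 CPM in UN against 0.0581 to 0.101 in U. Among lower genes, Casq1, the calcium store protein of muscle, measured 0 (UN 6) to 2.96 (UN 1) CPM in the UN mice, with a median of 0.693, and 10.4, 8.98 and 11.4 CPM in the U mice (edgeR log2 fold change -3.27 ± 0.72 (SE), adjusted p = 0.205), with the group-variance fit at adjusted p = 0.0043. Igfbp2, which binds insulin-like growth factors, measured 1.97 (UN 9) to 21.6 (UN 7) CPM in the UN mice, with a median of 8.96, and 65.3, 52.8 and 64.1 CPM in the U mice (edgeR log2 fold change -2.69 ± 0.59 (SE), adjusted p = 0.205, and 0.0969 with the block). Ntrk2, the receptor of BDNF, ranged from 8.98 to 47.7 CPM in UN against 87.1 to 134 in U, and Rhbg, an ammonia transporter, from 5.35 to 27.6 CPM in UN against 48.8 to 72.1 in U. Of 17 tested Mup genes, near-identical copies that may share reads, 13 were below U in every UN mouse, with a median log2 fold change of -2.04.

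The UN mice differed from each other in which lists stood out. UN 3 and UN 7 had the highest medians for basal, cell cycle and B cell genes, and UN 2 for macrophage, chemokine and erythroid genes. UN 9 was closest to U in neutrophil, basal and p53 genes. The list medians of p53 targets, as log2 ratios to U, lay between 0.31 and 1.22 in the 7 UN mice, and those of basal genes between -0.87 and 3.09. In the U mice, left and right ureters differed by a median over genes of 0.161, 0.198 and 0.392 on the log2 scale, and 1219 genes differed at least 2-fold between sides in U 3 against 348 and 498 in U 1 and U 2.

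**Figure D4:**
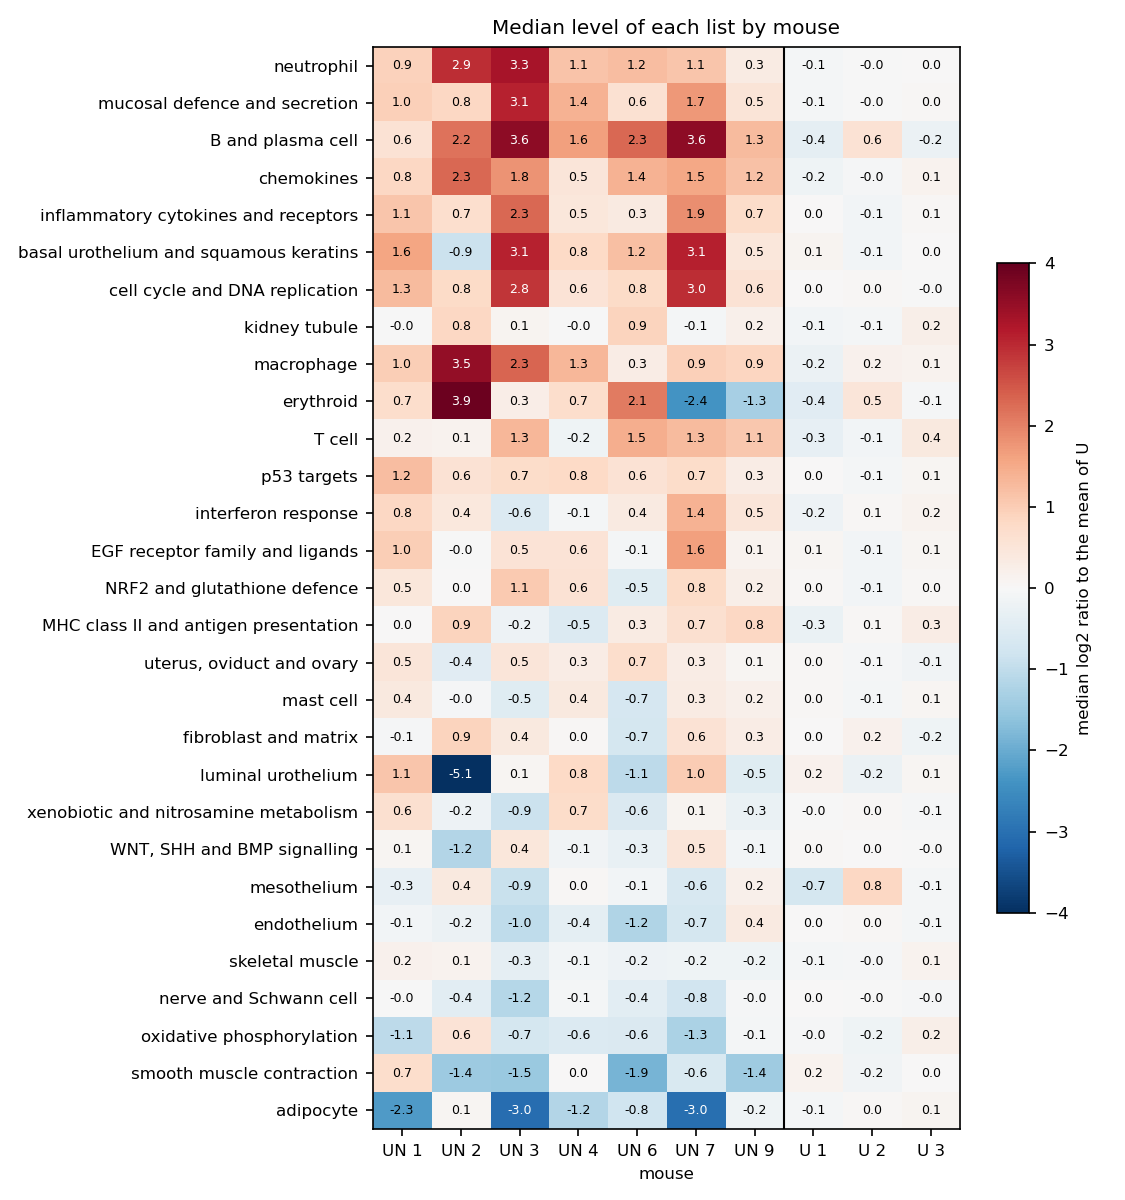
Median over the tested genes of each list of the log2 ratio of a mouse's CPM + 1 to the mean of the 3 U mice (number, and color saturating at 4), for 7 UN mice (left of the line) and 3 U mice (right). Cell cycle, chemokine and p53 target lists are higher in all 7 UN mice than in any U mouse, the B and plasma cell list overlaps between UN 1 and U 2, and UN 2 stands out at -5.09 for luminal urothelium.

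The bladder libraries of the same mice were used to ask whether the ureter response differed from that of the bladder, the organ in which BBN is best known to cause tumors. In 6 BBN-treated mice with both a UN ureter and a bladder library and the 3 untreated mice, with the mouse as a block, 50 of 18238 genes (0.274%) had a higher and 32 (0.175%) a lower response in ureter than in bladder (edgeR, adjusted p under 0.1 and at least 2-fold). Mouse 6 was left out because the label of its bladder library carried a T in place of the N of the others. When BBN 2, the mouse of the UN 2 library, was left out as well, 495 genes were higher and 561 lower, and leaving out the other BBN mice 1 at a time gave 26 to 123 higher and 9 to 65 lower, most without BBN 3 and fewest without BBN 4. Without BBN 1, BBN 3 and BBN 4, the mice of the 3 bladder libraries of lowest depth, 199 genes were higher and 116 lower. CPM in this comparison were normalized over its own libraries. Among the 4 genes called in ureter, Emid1 had lower values in both treated organs, but the difference was larger in bladder (edgeR log2 difference 3.63 ± 0.58 (SE), adjusted p = 0.0437). Its levels were 2.58 to 6.06 CPM in UN, 16.3 to 22 in U, 0.975 to 3.91 in BBN bladder and 122 to 142 in untreated bladder. Col23a1 fell in ureter and was low in bladder with or without BBN (1.91 to 12 CPM in UN, 37.7 to 51.1 in U, 0.702 to 6.82 in BBN bladder and 1.75 to 2.44 in untreated bladder; edgeR log2 difference -3.39 ± 0.69 (SE), adjusted p = 0.0904). Jchain and Serpinb6b showed no called difference between organs (edgeR log2 difference -2.58 ± 1.18 (SE), adjusted p = 0.375 for Jchain; edgeR log2 difference 0.58 ± 0.79 (SE), adjusted p = 0.721 for Serpinb6b).

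The 4 genes named for a higher response in ureter each had their highest levels in untreated bladder. Galnt16, a glycosyltransferase, measured 4.62 to 20.1 CPM in UN, 26.3 to 38.2 in U, 0.834 to 2.58 in BBN bladder and 94.8 to 112 in untreated bladder (edgeR log2 difference 4.22 ± 0.51 (SE), adjusted p = 0.0267). Angptl7, a secreted angiopoietin-like protein, measured 5.31 to 33.6 CPM in UN, 5.51 to 8.27 in U, 0.731 to 3.91 in BBN bladder and 49 to 138 in untreated bladder (edgeR log2 difference 5.95 ± 0.93 (SE), adjusted p = 0.0437). Gstm3, a glutathione transferase, and Acot1, an acyl-CoA thioesterase, had log2 differences of 4.36 and 4.17. At the other end, Sprr2f, a cornified envelope protein, measured 3.72 to 396 CPM in UN, 37.9 to 52.5 in U, 312 to 8609 in BBN bladder and 1.13 to 5.11 in untreated bladder (edgeR log2 difference -8.31 ± 1.7 (SE), adjusted p = 0.0908). Unc5d, a netrin receptor, had a log2 difference of -8.66 and measured 0 to 1.97 CPM in UN, 5.33 to 6.09 in U, 0.179 to 35.6 in BBN bladder and 0 to 0.526 in untreated bladder. Teddm3 was listed at 0 in all untreated bladders and reached 96.5 CPM after BBN, and Apcs, an acute phase pentraxin, reached 338 CPM in a treated bladder with a median of 0.388. In ureter neither exceeded 2.42 CPM. The counts of genes that differed in response became 0 in both directions when any single untreated mouse was left out, with 1107 to 1974 genes at an unadjusted p under 0.05.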

How the data were processed

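Total RNA of whole ureters and bladders was extracted with miRNeasy columns, amplified with SMARTer chemistry and tagmented with Nextera XT, and sequenced on a DNBSEQ instrument; the strand setting of the counting was not given in the sources used here. The authors deposited 1 table of estimated counts for 24421 gene symbols in 37 columns, all of which matched a labelled sample (0 columns without a sample), aligned to GRCm38. The submitters' processing notes name TopHat2 2.1.1 and Cuffdiff 2.2.1. Of the nonzero estimated counts as deposited 21.1% were fractional, and they were rounded. The table held 0 mitochondrial symbols, so that the planned test of the mitochondrial share was not run and the share of Rn45s was used in its place.

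Ureters of an untreated mouse were summed, which gave 7 UN and 3 U profiles. Genes passing filterByExpr (15609) were tested with edgeR 4.0.16 (quasi-likelihood test, TMM) in R 4.3.3, and called by the thresholds of the study, a Benjamini-Hochberg adjusted p under 0.1 with a change of 2-fold or more. Because the UN profiles varied far more than the summed U profiles, limma 3.58.1 (voom with quality weights estimated per group) was run as an alternative, and the share of genes without overlap between the mice of both groups was counted. Other alternatives were the 13 libraries as separate samples, all 23 ureter libraries, the mouse as a random effect, DESeq2 1.42.0, limma-trend, RLE scaling, no filter, at least 10 CPM in 3 mice, the robust option, side as a covariate, the replicate number as a block, thinning to 4674970 counts, and leaving out each mouse. Leaving out UN 2 and UN 6 together, the repeats of the group-variance fit and of the overlap counts were added after the data were seen. The response of ureter and bladder was compared by an edgeR interaction with the mouse as a block. The edgeR fit of UN against U by mouse was tested on simulated counts, and the other fits were not.

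Same-numbered UN and U mice are different animals. Their deviations from the group means correlated over genes at 0.319, 0.106 and 0.110 for numbers 1, 2 and 3, each over 0.1, so that the blocked counts are given beside the others. Pairs of unlike number ranged from -0.346 to 0.357, and each U mouse correlated best with a UN mouse of another number, so the values do not show that the numbers link the mice. Genes were named by a rule: called genes with the largest fold change and no overlap, the anchors of 29 lists, the called member of each list, and the 4 largest responses per direction between organs. All other names were picked with the values in view, and some list members are not reported here. The members and lists were chosen with earlier results of these data known. Gene positions are from GENCODE on GRCm38, and promoters, the 250 bases before the first listed start, from RefSeq on GRCm38.p6. The number of mice limits the precision. The p-values of the main UN against U fit weigh the group difference against the spread between mice. The fits on separate libraries count both ureters of a U mouse as independent, and the organ comparison rests on tissue differences within a mouse.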

Additional observations from a re-analysis of the deposited data

Results flagged for a closer look

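In 91 measures of the 7 UN libraries, the libraries farthest from the rest were examined for a gap to the nearest library beyond the critical value of Dixon's test, and 12 were found; about 1 group in 20 shows such a gap by chance. UN 6 was farthest in its total of 4675081 counts, in the share of its 10 most abundant genes (35.5%) and in the share of Rn45s (19.7%). It was also lowest for Pecam1, the endothelial adhesion molecule, at 3.82 on the log2(CPM + 1) scale, which the values below use too. UN 2 was highest for Ccl2 at 5.38 and for Umod at 2.92, and lowest for Pigr at 1.73, Shh at 0, Upk2 at 0.43 and Upk3b at 1.51, of which the last 4 are genes of urothelium. UN 4 was highest for Cyp2b10 at 7.32, and UN 7 lowest for Cyp2e1 at 9.996, a cytochrome that fat also expresses.

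The response to BBN differed between ureter and bladder for 50 genes with a higher and 32 with a lower response in ureter (edgeR interaction, adjusted p under 0.1 and at least 2-fold). Given here are the 4 named in each direction, by size of the difference among those with a mean of at least 5 CPM in a group. The log2 difference, ureter response minus bladder response, was 5.95 for Angptl7, 4.36 for Gstm3, 4.22 for Galnt16 and 4.17 for Acot1. In the other direction it was -9.99 for Teddm3, -8.66 for Unc5d, -8.48 for Apcs and -8.31 for Sprr2f. The fitted value of Teddm3 is no bound on its fold, since every untreated bladder is listed at 0, and Apcs had a median of 0.388 CPM in treated bladder, so that its difference rests on few bladders.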

How the results depend on the processing

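The count of genes called between UN and U, 2 higher and 2 lower, was the value most dependent on the processing. edgeR called 1563 higher and 378 lower with the 13 libraries as separate samples, 1851 higher and 257 lower with all 23 ureter libraries, 1482 higher and 523 lower with side as a covariate, 117 higher and 66 lower with the replicate block, 2 higher and 0 lower after thinning and 728 higher and 124 lower without UN 2 and UN 6. The fits on separate libraries count both ureters of a U mouse as independent. DESeq2 called 1200 higher and 139 lower, limma-trend 6 higher and 2 lower, the mouse as a random effect 28 higher and 42 lower, and the group-variance fit 1385 higher and 973 lower. RLE scaling, no filter, 10 CPM in 3 mice and the robust option left the counts at 2 and 2. Leaving out 1 mouse gave 0 to 57 higher and 0 to 19 lower, highest without UN 2 (57 and 8), UN 6 (47 and 14) and UN 9 (25 and 19), and 0 and 0 without UN 7 or any U mouse, with 983 to 1875 genes at an unadjusted p under 0.05. The cause of these changes was not tested. The 4 called genes kept their direction in all 24 alternatives, with log2 fold changes of 4.15 to 4.78 for Jchain, 3.07 to 3.53 for Serpinb6b, -2.29 to -2.05 for Emid1 and -3.68 to -3.06 for Col23a1, and were called in 19, 19, 16 and 17 of them; the adjusted p reached 0.741 when a U mouse was left out. The replicate block, a contrast of 3 pairs, called 3 of the 4, without Emid1 (adjusted p = 0.113).

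The group-variance counts, 1385 and 973, were 1537 and 1231 without UN 2 and UN 6, and 859 to 1576 and 444 to 1207 without 1 mouse. The genes without overlap, 646 above and 539 below, were 364 and 267 over 13 libraries, 1749 and 1381 without UN 2 and UN 6, 681 to 1117 and 555 to 1141 without 1 mouse, which fewer mice make larger. Of the genes called by the group-variance fit, 36.1% of the higher and 28.0% of the lower did not overlap, which was 77.4% and 50.5% of the genes without overlap. The organ counts, 50 and 32, were 199 and 116 without the 3 bladders of lowest depth, 91 and 30 with limma-voom, and 0 to 495 and 0 to 561 without 1 mouse.

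Of 87 named genes, 17 changed sign in at least 1 alternative, and none of these was called by edgeR. Their log2 fold changes follow. By DESeq2, the value was -0.23 for Alas2. By limma-trend, the value was -0.011 for Alas2, -0.094 for Gclc, -0.018 for Gli1. Without UN 2 and UN 6, the value was -0.081 for Alas2, 0.13 for Cyp1a1, -0.055 for Hba-a1, -0.091 for Hbb-bt, -0.32 for Ndufa4, 0.051 for Pecam1. Thinned, the value was 0.041 for Cdh5, -0.18 for Gli1. With the replicate block, the value was -0.054 for Cpa3, -0.34 for Erbb2, -0.11 for Gclc, -0.15 for Gli1, 0.057 for Pecam1, -0.00037 for Postn, 0.31 for S100b. With the random effect, the value was -0.050 for Gclc, -0.043 for Gli1. In the group-variance fit, the value was -0.053 for Gclc, -0.050 for Gli1. With no filter, the value was -0.032 for Gli1, -0.019 for Postn. Leaving out 1 mouse at a time gave ranges that crossed 0, -1.46 to 0.040 for Acta1, -0.28 to 1.82 for Alas2, -0.56 to 1.39 for Cd8a, -0.49 to 0.12 for Col1a1, -0.76 to 0.19 for Cyp1a1, -0.0042 to 0.29 for Gclc, -0.18 to 0.28 for Gli1, -0.82 to 0.11 for Lrrn4, -0.063 to 0.45 for Ndufa4, -0.32 to 0.055 for Pecam1, -0.10 to 0.15 for Postn, -0.77 to 0.058 for S100b. Depth limits UN 6 most, and the 3 U mice limit every test.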
